A study of Mus musculus with 10 samples.

Results

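Male mouse embryonic stem cells (mESCs) kept on gelatin for 10 passages were compared with the cells they came from. The comparison used 4 of the 10 RNA-seq libraries of the series, namely both libraries of passage 10 (p10) under the Mulas2019 method and both libraries of the starting cells (p0), chosen by their labels alone. The cells were 2 male lines of the C57/Bl6 strain, unmodified, grown in 2i medium, and each line gave 1 library (replicate 1 or replicate 2) at each stage. Per the study, the lines were derived and first grown under its own Keniry2022 method, so p0 stood for cells in suspension on untreated plastic, passaged every day at low oxygen and high density in a large volume of medium. Part of each line was then moved to Mulas2019 conditions, which the labels call Old or On, with attachment to gelatin, less frequent passaging, lower density and a smaller volume of medium. The study also lists ambient oxygen and less glutamine supplement as points of difference between the methods, while its methods text says that reagents were otherwise shared. All of these conditions changed together, along with the time in culture, so their parts in any difference cannot be told apart. The other groups of the series were p20 under Mulas2019, and p10 and p20 under Keniry2022, with 2 libraries each.

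mESCs in 2i medium, which blocks MEK and GSK3, are held in the naive pluripotent state of the early epiblast, with a self-renewing network built around Oct4 (Pou5f1), Nanog and Sox2. Their DNA is broadly hypomethylated in this medium, and a set of germline genes that promoter methylation otherwise silences can be transcribed. mESCs lean on glycolysis as well as respiration, and they adapt transcription to oxygen through HIF factors and to amino acid supply through ATF4.

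As models, the groups were limited to 2 lines with no further cultures of either, and bulk RNA cannot tell fewer cells of a type from less RNA per cell. Libraries held 24053996 to 30236823 reads, and 86.0% to 88.8% of them lay in annotated features. Replicate 1 had 132 reads in Y-linked genes at p0 and 43 at p10, against 8140 and 5930 in replicate 2, although the labels call both lines male. Within this comparison the replicate numbers therefore matched in Y-linked reads, while in p20 Keniry2022 they were the other way round (6659 reads in replicate 1 and 48 in replicate 2). From DNA sequencing, the study reports that a line of these male cells lost its Y chromosome while being derived, before the culture methods were compared. Its main text does not name that line.

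The first measurement to set out was the distance between the starting libraries. Across the 11561 features tested, the log2 difference between the p0 libraries had a standard deviation of 0.611, against 0.250 between the p10 libraries and 0.230 to 0.265 between the libraries of the other groups. The p10 libraries correlated with p0 replicate 2 at r = 0.971 and 0.980, and with p0 replicate 1 at r = 0.926 and 0.925, where the p0 libraries correlated with each other at r = 0.956 (across features, which are not independent). Both p10 libraries were thus nearer to p0 replicate 2 than the p0 libraries were to each other.

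With limma, in a model in which all 10 libraries share 1 estimate of the spread, 3816 features (33.0% of those tested) differed between p10 and p0 at an adjusted p under 0.05. Of these, 1812 (15.7%) were higher and 2004 (17.3%) were lower at p10, with a median absolute difference of 0.63 on the log2 scale, and 282 rose and 268 fell by 1 or more. Over all tested features, both p10 libraries lay above both p0 libraries in 33.4% and below both in 33.1%. In every called feature both p10 libraries lay beyond both p0 libraries. However, 86.8% of called features were farther from p0 replicate 1, and in 3311 the level of p0 replicate 2 lay between p0 replicate 1 and p10. Against p0 replicate 1 alone 8250 features were called and against p0 replicate 2 alone 4655, of which 3731 were called against each in the same direction and 221 in opposite directions. In these fits the lone p0 library was assumed to vary like the other groups. Features called in the shared model and against each p0 library numbered 1623 higher and 1773 lower.

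These calls rested on the libraries outside the comparison for their estimate of the spread. A fit of the 4 libraries called 0 features, with 2596 at an unadjusted p under 0.05, and library quality weights also left 0, with 2556 at that level. With the replicate number entered as a block, the call count was 3575 in 10 libraries and 1324 in the 8 without p20 Keniry2022. It was 1781 in the 4 libraries, of which 1360 were shared with the model above. In p20 Keniry2022 the replicate numbers were the other way round in Y-linked reads, so in 10 libraries this block may mix the lines. The block in the 4 libraries leaves little residual spread per feature, so its calls rest mainly on the spread pooled over features. Without p10 replicate 1 the shared model called 11 features, and without p10 replicate 2 it called 141. Without any 1 library of the other 3 groups it called 1780 to 1996. On simulated data of this design, 18 of 100 features changed by 0.5 and 76 of 100 changed by 1 on the log2 scale were recovered. In that simulation few features changed and all libraries of a feature had the same spread, unlike the data.

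**Figure D1:**
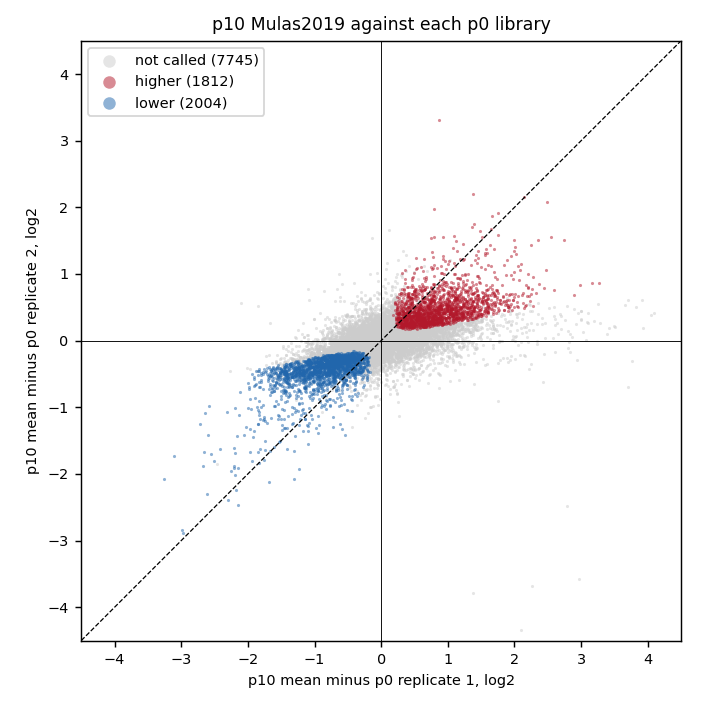
Each point is 1 of the 11561 tested features, plotted by the log2 difference of the p10 Mulas2019 mean from p0 replicate 1 (horizontal) and from p0 replicate 2 (vertical), with 5 features outside the axes. Called features (1812 higher in red, 2004 lower in blue) lie in the quadrants where both differences have the same sign, mostly below the dashed line of equal size when higher and above it when lower.

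Exon length moved with the comparison. In features with exons under 1000 bases the p10 mean was lower than p0 replicate 1 by a median of -0.69 on the log2 scale and lower than p0 replicate 2 by -0.21. In features of 8000 bases or more the same medians were 0.89 and 0.22. The p0 libraries themselves differed along this axis, with p0 replicate 1 above p0 replicate 2 by a median of 0.56 in the shortest class and below it by -0.65 in the longest. Called features followed: 32.7% of the shortest class were lower and 5.14% higher, against 2.63% and 39.3% of the longest. Spearman's rho of exon length with the difference was 0.567 against p0 replicate 1 and 0.323 against p0 replicate 2, and it was 0.278 for p10 Mulas2019 against p10 Keniry2022, where no p0 library enters (across features, as a description). What moved long and short transcripts apart was not tested. Counts for the gene lists are therefore also given after a loess curve over exon length was removed from each library, an alternative added after the data were seen. It called 1766 features higher (15.3%) and 1870 lower (16.2%), 2630 of them shared in direction with the calls above, and turned the sign of 106 called features. The standard deviation of the difference between the p0 libraries was still 0.533 after the correction, and the fit of the 4 libraries still called 0, with 3048 at an unadjusted p under 0.05.

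**Figure D2:**
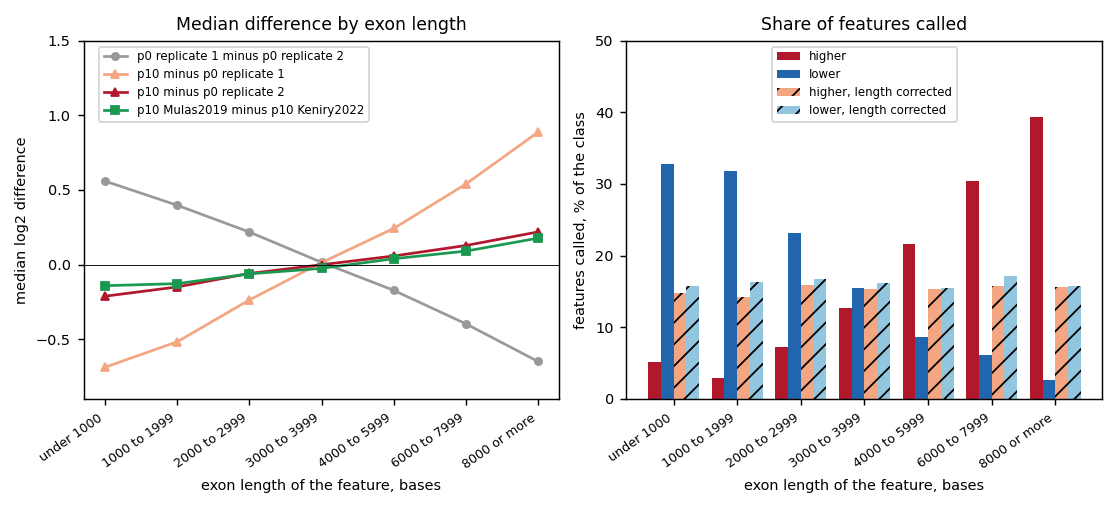
Left, the median log2 difference of tested features in 7 classes of exon length (bases), for p0 replicate 1 minus p0 replicate 2 (grey), p10 Mulas2019 minus each p0 library (orange and red) and p10 Mulas2019 minus p10 Keniry2022 (green); right, the percentage of each class called higher or lower at p10, as deposited (solid) and after the correction for length (hatched). The p10 lines rise with length, from -0.69 to 0.89 against p0 replicate 1 and from -0.21 to 0.22 against p0 replicate 2. The uneven shares of called features level out after the correction, which removes the trend over length by its construction.

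Among features at a mean log2 RPKM (reads scaled to exon length and library size) of at least 3, the 12 that rose furthest beyond the nearer p0 library included meiotic, hypoxia and amino acid genes. Stra8, the retinoic acid responsive gatekeeper of meiosis, stood at 5.30 and 5.10 log2 RPKM in the p0 libraries and at 7.18 and 6.76 at p10. Both p10 libraries were above both p0 libraries, which the choice of these 12 required. The log2 difference was 1.77 ± 0.19 (SE, n = 2 libraries a group, limma adjusted p = 0.00602), or 3.40-fold. Dmrt1, a testis and germ cell transcription factor, was at 3.34 and 2.96 at p0 and at 4.63 and 4.29 at p10, a log2 difference of 1.31 ± 0.21. Stc2, a secreted glycoprotein that responds to hypoxia and to ATF4, rose from 3.30 and 3.56 to 4.88 and 4.83, a difference of 1.43 ± 0.13 (adjusted p = 0.00486). In all 3 the gap between p0 libraries was smaller than the change, so the choice of p0 library mattered little.

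Genes of amino acid supply were also among the 12. Aldh18a1, the first enzyme of proline synthesis, stood at 4.53 and 4.63 at p0 and at 5.69 and 5.58 at p10. Slc1a4, a neutral amino acid transporter, went from 3.49 and 3.77 to 4.81 and 4.71. Their differences were 1.05 ± 0.08 and 1.13 ± 0.10 on the log2 scale, with adjusted p = 0.00392 and 0.00486. Kdm6b, an H3K27 demethylase whose exons overlap 1700064E03Rik, differed by 1.05. Alpk3, an alpha kinase best known in heart muscle, differed by 1.12, and its exons overlap Gm16012. Gm514, a gene of unassigned function, differed by 1.24.

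The remaining higher features also carried limits. Bhlhe40, a HIF-induced repressor whose exons overlap 0610040F04Rik, rose from 3.70 and 4.72 to 5.85 and 5.73, a log2 difference of 2.09 from p0 replicate 1 but 1.07 from p0 replicate 2. The imprinted Zdbf2 behaved alike, from 1.79 and 2.76 to 3.83 and 3.66, and its exons of 12659 bases are among the long ones, so that its difference of 1.47 became 0.80 after the correction for length. Ndufa4l2, a HIF-induced brake on respiratory complex I that overlaps Shmt2, was at 3.68 and 3.81 and then at 4.70 and 4.64, and its difference of 0.92 became 1.38. Gm20417 (1.24) lies over Malat1, so its reads cannot be separated from those of that abundant nuclear RNA.

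The 12 features that fell furthest below the nearer p0 library were led by Ppp1r14d and Trh. Ppp1r14d, an inhibitor of protein phosphatase 1, was at 4.61 and 4.33 log2 RPKM at p0 and at 2.09 and 2.73 at p10, a log2 difference of -2.06 ± 0.26 (adjusted p = 0.00753). Trh, the thyrotropin-releasing hormone precursor and a transcript common in naive mESCs, was at 5.22 and 4.99 and then at 2.63 and 3.52, a difference of -2.03 ± 0.31. Nr0b1 (Dax1), an X-linked repressor within the pluripotency network, went from 7.46 and 6.92 to 5.62 and 5.82, a difference of -1.47 ± 0.16. Absence of overlap between p0 and p10 was a condition for naming these features, and the p10 libraries lay 0.64 and 0.89 apart in Ppp1r14d and Trh.

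Others of the 12 belong to redox and calcium binding families. Cbr3, a carbonyl reductase, fell from 4.99 and 4.36 to 2.76 and 3.11, and Glrx, a glutaredoxin, from 3.91 and 3.54 to 2.47 and 2.25. The neighbouring genes S100a13 and S100a1, on chromosome 3 (90514435 to 90524581 and 90511034 to 90514392, GRCm38), encode small calcium-binding proteins and differed by -1.82 and -1.54 on the log2 scale. Pttg1 (securin, which holds separase until anaphase) differed by -1.66, with p0 at 6.09 and 5.36 and p10 at 4.01 and 4.12. Zfp459, a zinc finger gene on chromosome 13, was at 4.53 and 4.45 and then 3.14 and 3.26. The rest were Aoah, an acyloxyacyl hydrolase (-1.26), and the little-described Gm694 (-1.45) and Gm10664 (-2.13), the last overlapping Trim60 and Trim61.

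All 24 of these features kept their direction and their call after the correction for length. They also kept their call in each fit with a block by replicate number or by Y-linked reads. There the difference itself stays the same and, in the 4 libraries, the spread is mainly pooled over features. The loss of a p10 library was a different matter, since 4 of the 24 were still called without p10 replicate 1 and 15 without p10 replicate 2, all with the same sign. The fit of the 4 libraries called 0 of them. Direction could not turn in these smaller fits, because the 24 were chosen without overlap and the fit of the 4 libraries compares the same means.

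**Figure D3:**
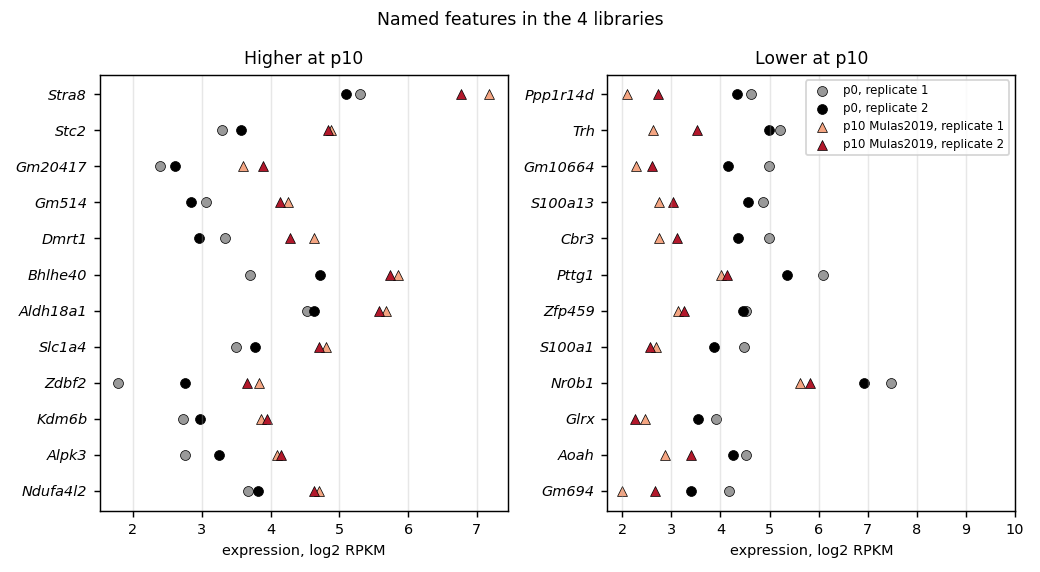
Expression (log2 RPKM) of the 12 features that rose (left) and the 12 that fell (right) furthest beyond the nearer p0 library, with circles for the p0 libraries and triangles for the p10 Mulas2019 libraries. In each row both triangles lie to the same side of both circles, as the choice of features required, and the p0 circles are widest apart in Bhlhe40 (3.70 and 4.72) and Zdbf2 (1.79 and 2.76).

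Genes that cells induce through HIF factors at low oxygen included many that were higher at p10. Of 30 tested members of the hypoxia list, 17 were called higher and 0 lower by limma, against 15.7% and 17.3% of all tested features, with a median log2 difference of 0.63 beside 0.01 over all features. The median was 0.86 against p0 replicate 1 and 0.45 against p0 replicate 2, and 0.58 after the correction for length, with 17 higher and 2 lower. The 2 lower after correction were Ak4 and Rbpj, which were not called before it. With the replicate block in the 4 libraries 13 were called higher, beside 930 of 11799 features tested in that fit.

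The list spans several roles. Among regulators, Egln3, an oxygen-sensing prolyl hydroxylase that marks HIF for degradation, was at 3.69 and 4.24 log2 RPKM at p0 and at 5.06 and 5.03 at p10, a difference of 1.08 ± 0.19. Vegfa, the main angiogenic growth factor, was at 3.72 and 4.26 and then at 5.12 and 5.08, a difference of 1.11 ± 0.16 (adjusted p = 0.00844). Loxl2, a lysyl oxidase of collagen and elastin, was near the detection filter at -0.97 and 0.02 and reached 1.57 in both p10 libraries, a difference of 2.05 ± 0.29. Ero1l, an oxidase of protein folding, and Ndrg1, a stress-induced gene whose exons overlap Gm17035 and Gm2895, differed by 1.32 and 1.19. Members not called included the mitophagy receptors Bnip3 (0.06) and Bnip3l (-0.22) and the demethylase Kdm3a (0.08), so the list did not move as a block.

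Of 19 glycolytic enzymes tested, 11 were called higher and 1 lower, against 15.7% and 17.3% of all tested features, with a median of 0.34 against p0 replicate 1 and 0.35 against p0 replicate 2. Pfkl, a phosphofructokinase subunit at the committed step, was at 5.76 and 6.17 at p0 and at 6.996 and 6.980 at p10, a difference of 1.03 ± 0.14 (adjusted p = 0.00756). Pfkfb3, which makes the activator of that step, rose from 1.36 and 2.76 to 3.58 and 3.55, and Hk2, which traps glucose as its phosphate, from 5.49 and 6.28 to 6.85 and 6.90. Lactate dehydrogenase subunits parted, with Ldha at 8.99 and 9.02 and then 9.34 and 9.32, a difference of 0.33, and Ldhb lower by -0.60. After the correction for length 12 enzymes were higher and 0 lower. With the replicate block 5 were higher in the 4 libraries and 6 in the 8 without p20 Keniry2022. Those fits called 930 of 11799 and 641 of 11676 tested features higher. Gapdh (0.62) has many processed pseudogenes, and its reads are uncertain.

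Targets of ATF4, the factor that raises amino acid synthesis and import when supply is short or translation initiation is restrained, numbered 30 higher and 2 lower of 45 tested members. Over all tested features 15.7% were higher and 17.3% lower. The median of the list was 0.53, or 0.46 and 0.56 against p0 replicates 1 and 2. After the correction for length 34 were higher and 2 lower and the median was 0.60. With the replicate block in the 4 libraries 16 were higher, beside 930 of 11799 features tested in that fit.

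Among sensors and effectors of this pathway, Trib3, a pseudokinase that feeds back on ATF4, was at 4.73 and 4.24 at p0 and at 5.60 and 5.39 at p10. Chac1, which degrades glutathione, was at 3.87 and 3.08 and then at 4.68 and 4.56. Their differences were 1.02 ± 0.17 and 1.15 ± 0.23. Among transporters, Slc7a1 for cationic amino acids differed by 1.20, and Slc6a9 for glycine by 1.67 from a low level (0.29 and 0.47, then 2.06 and 2.03), with exons that overlap 4 other genes. Vldlr, a lipoprotein receptor, went from -0.76 and 0.09 to 1.72 and 1.47. Asns, asparagine synthetase, was abundant and moved little, from 8.38 and 8.25 to 8.67 and 8.55, a difference of 0.30 that passed narrowly (adjusted p = 0.0479). Lower were Cth, which makes cysteine from cystathionine (-0.59), and Slc7a3, another cationic amino acid transporter (-0.23).

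The promoters of these gene groups were read from RefSeq windows of 300 bases (250 before the start and 50 after it, GRCm38.p6), which were found for 23 of the 30 hypoxia members and 37 of the 45 ATF4 members. The cores of the hypoxia response element, ACGTG and GCGTG on either strand, were in 85.7% of hypoxia list windows, in 63.7% of the windows of tested features and in 43.8% of all windows. The share was 85.7% both for members called higher and for those not, so it did not separate them. The ATF4 composite element, TGATGNAAN on either strand, was in 26.1% of ATF4 list windows, against 2.00% of those of tested features and 3.95% of all windows, and in 25.7% of windows of members called higher and 27.3% of those not, so it did not separate them either. A match is a run of letters and not a shown binding site. The 4 windows printed here belong to members described above and are shown because the named letters occur in them, in capitals, 5′ to 3′ on the strand of the gene.

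Chac1 (chr2:119350992-119351291, plus strand): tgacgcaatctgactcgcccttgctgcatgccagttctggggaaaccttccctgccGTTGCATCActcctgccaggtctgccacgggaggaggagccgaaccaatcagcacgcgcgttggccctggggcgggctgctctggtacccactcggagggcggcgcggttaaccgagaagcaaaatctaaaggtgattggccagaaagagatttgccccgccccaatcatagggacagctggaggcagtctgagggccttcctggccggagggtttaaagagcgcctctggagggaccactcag

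Trib3 (chr2:152344011-152344310, minus strand): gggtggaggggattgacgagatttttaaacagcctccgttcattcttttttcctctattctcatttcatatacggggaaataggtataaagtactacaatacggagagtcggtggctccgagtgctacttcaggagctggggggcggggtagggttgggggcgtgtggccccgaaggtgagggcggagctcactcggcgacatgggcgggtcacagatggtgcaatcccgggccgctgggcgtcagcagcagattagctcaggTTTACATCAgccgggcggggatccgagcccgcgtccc

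Stc2 (chr11:31370012-31370311, minus strand): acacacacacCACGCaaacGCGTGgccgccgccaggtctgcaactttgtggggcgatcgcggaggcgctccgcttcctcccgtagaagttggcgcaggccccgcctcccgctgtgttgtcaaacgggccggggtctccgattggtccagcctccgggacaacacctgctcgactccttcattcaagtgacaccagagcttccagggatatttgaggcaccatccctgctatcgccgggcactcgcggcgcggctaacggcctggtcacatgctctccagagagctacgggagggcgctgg

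Egln3 (chr12:54203825-54204124, minus strand): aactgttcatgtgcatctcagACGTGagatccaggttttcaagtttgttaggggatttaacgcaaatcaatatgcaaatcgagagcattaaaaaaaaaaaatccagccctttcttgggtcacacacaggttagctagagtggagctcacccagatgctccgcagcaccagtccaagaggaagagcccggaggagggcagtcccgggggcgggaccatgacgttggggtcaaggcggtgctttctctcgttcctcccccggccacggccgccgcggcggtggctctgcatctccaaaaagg

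The Chac1 and Trib3 windows hold 1 ATF4 element each, in reverse orientation. Stc2 holds 2 hypoxia cores side by side, and Egln3 holds 1.

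Enzymes of sterol and fatty acid synthesis, which SREBP factors induce when sterols are low, were called higher in 15 of 34 members and lower in 1 (Ebp, -0.46), against 15.7% and 17.3% of all tested features, with a median of 0.38. The median was 0.64 against p0 replicate 1 and 0.28 against p0 replicate 2. Dhcr7, which completes cholesterol, was at 4.01 and 4.11 at p0 and at 4.77 and 4.79 at p10, a difference of 0.72 ± 0.09 (adjusted p = 0.00717), and Fads1, a fatty acid desaturase, rose from 4.81 and 4.98 to 5.55 and 5.56. Lss, lanosterol synthase, differed by 0.92 but only by 0.35 after the correction for length and was then not called (exon length 10787 bases, overlapping 4930483K19Rik). Hmgcs1, an early SREBP target, did not pass (-0.15, adjusted p = 0.308). With the replicate block in the 4 libraries 5 members were higher, beside 930 of 11799 features tested in that fit. After the correction for length 18 were higher and 3 lower.

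The core pluripotency factors showed no common direction. Of 17 tested, 1 was higher and 4 lower, against 15.7% and 17.3% of all tested features, with a median of -0.01. Sox2 stood at 7.80 and 7.56 at p0 and at 7.63 and 7.69 at p10, with overlapping libraries. Pou5f1, whose exons overlap Gm19553, was at 9.23 and 8.71 and then at 8.29 and 8.37, a difference of -0.64 ± 0.15 that was smaller from p0 replicate 2 (-0.38) than from replicate 1. Nanog was at 9.10 and 9.04 and then at 8.73 and 8.67, a difference of -0.37 that became 0.10 under quantile normalisation and -0.17 after the correction for length, where it was not called. Zfp42 (Rex1) was lower by -0.30, or by -0.03 after the correction, and Klf4 (0.17) and Esrrb (0.08) were not called. The member called higher was Tfap2c, a factor of naive cells and the germline, from 4.46 and 4.20 to 5.01 and 4.92. Pou5f1, Nanog, Sox2, Zfp42, Esrrb and Klf4 were all at 5.58 log2 RPKM or more in the 4 libraries. After the correction for length 1 member of the list was higher and 3 lower.

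Of 28 other transcripts of the naive state tested, 15 were called lower and 3 higher (Pecam1, Epcam and Alpl), against 17.3% and 15.7% of all tested features, with a median of -0.62 against p0 replicate 1 and -0.28 against p0 replicate 2. Fbxo15, an F-box gene long used as an mESC reporter, was at 8.86 and 8.58 at p0 and at 7.87 and 7.81 at p10, a difference of -0.88 ± 0.10 (adjusted p = 0.00661). Dppa5a, among the most abundant of these transcripts and only 619 bases long, was at 11.58 and 10.79 and then at 10.26 and 10.23, and its difference of -0.94 became -0.47 after the correction for length. Morc1, a repressor of transposons in the germline, went from 6.64 and 6.16 to 5.62 and 5.60, and Zfp57, which protects imprints, from 6.352 and 6.001 to 5.64 and 5.66. After the correction 14 were lower and 3 higher. Formative and primed markers had 2 higher and 2 lower of 17 (1 and 5 after the correction), among them Foxd3, a factor of the exit from naive pluripotency, lower from 3.78 and 3.07 to 1.67 and 2.23. Among tested members of the ERK and LIF lists, Myc differed most and went from 1.31 and 0.12 to -1.18 and -1.41 log2 RPKM, a difference of -2.01 ± 0.41. Egr1, an immediate early gene below the filter and so not tested, had 7 and 6 reads at p0 and 87 and 76 at p10. At p20 Mulas2019 it was at -3.26 and -3.36 log2 RPKM, nearer to p0 (-3.95 and -4.34) than to p10 (-0.32 and -0.84).

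Of 33 tested germline genes that promoter methylation normally silences, 16 were called lower and 3 higher, against 17.3% and 15.7% of all tested features, with a median of -0.44 against p0 replicate 1 and -0.60 against p0 replicate 2. The higher members were Stra8, the meiotic cohesin Rec8 (1.75 and 1.62, then 2.77 and 2.51) and the meiotic cohesin Stag3 (1.75 and 2.09, then 2.41 and 2.50). Lower were Syce1 of the synaptonemal complex, from 4.97 and 4.64 to 3.73 and 3.55, and Gtsf1 and Asz1 of the piRNA pathway, with differences of -1.25 and -1.17. Sycp3, another synaptonemal protein whose exons overlap Chpt1, differed by -1.13, with p0 at 4.91 and 3.98 and p10 at 3.45 and 3.18. Dazl, a germ cell RNA-binding protein, passed narrowly (-0.48, adjusted p = 0.0495) and neither with the replicate block in 10 libraries nor after the correction for length, where 12 members were lower and 4 higher.

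Enzymes and readers of DNA methylation numbered 4 higher and 1 lower of 21, and 3 and 3 after the correction. Over all tested features 15.7% were higher and 17.3% lower, or 15.3% and 16.2% after the correction. Tet3, an oxidase of 5-methylcytosine, rose from -1.19 and -0.27 to 0.90 and 0.82, and its difference of 1.59 ± 0.28 was still called after the correction. Dnmt3b was not called (0.12, adjusted p = 0.532). Among 37 imprinted genes 14 were higher and 4 lower, with a median of 0.24 (0.21 after the correction). Peg10, a retrotransposon-derived gene of the placenta, was at -0.64 and 0.60 at p0 and at 2.00 and 2.21 at p10, a difference of 2.13 ± 0.37. Cdkn1c, a CDK inhibitor expressed from the maternal allele, was level at p0 (2.00 and 1.99) and lower at p10 (-0.03 and 0.69), and Igf2r, which overlaps the antisense Airn, rose from 2.94 and 4.09 to 4.79 and 4.73. Levels of imprinted genes were measured without regard to allele.

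Gelatin offers attachment, and genes of adhesion and matrix were read with that group. Of 21 integrins and focal adhesion genes 8 were higher and 1 lower (Ilk, -0.38), against 15.7% and 17.3% of all tested features. Their median was 0.62 against p0 replicate 1 and 0.24 against p0 replicate 2. These genes have long exons (median 5229 bases against 3425 over all tested features). After the correction 3 were higher and 2 lower with a median of 0.09, against 15.3% and 16.2% of all tested features. Itga5, the fibronectin receptor subunit, kept its call, from 4.05 and 4.24 to 4.75 and 4.70 (difference 0.58, or 0.49 corrected), as did Ptk2, focal adhesion kinase (0.64 and 0.49). Tns1 (0.90) and Tln2 (0.92), long linkers of integrins to actin, did not. Basement membrane and matrix genes numbered 10 higher and 2 lower of 22, and 8 and 2 after the correction, with Agrn, the proteoglycan agrin, at 4.31 and 5.03 and then 5.53 and 5.70.

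Epithelial junction genes were higher in 9 and lower in 1 of 26 members, before the correction, and higher in 9 and lower in 2 after it. Over all tested features 15.7% were higher and 17.3% lower before it. Esrp1, an epithelial splicing regulator, went from -0.48 and -0.83 to 0.93 and 0.83, Tjp1 (ZO-1), the tight junction scaffold, from 3.47 and 4.31 to 4.91 and 4.92, and Cldn6 from 2.49 and 2.24 to 3.18 and 2.94. Jup, plakoglobin, was lower (-0.59). YAP and SRF targets stood near the shares over all features, 4 higher and 5 lower of 28 (5 and 5 after the correction), with Actg1, cytoplasmic actin, higher from 3.58 and 3.74 to 4.25 and 4.31. The calcium-dependent membrane binders Anxa1 and S100a10 were lower, Anxa1 from 1.87 and 1.79 to -1.59 and -0.60, which is a difference of -2.93 ± 0.30 (adjusted p = 0.0053).

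Genes of protein synthesis, respiration and protein turnover had more members lower than higher, beside 17.3% lower and 15.7% higher over all tested features. They have short exons and lay farther from p0 replicate 1 than from p0 replicate 2. Of 85 cytosolic ribosomal protein genes 36 were lower and 0 higher, of 76 mitochondrial ribosomal protein genes 39 and 0, of 78 nuclear-encoded respiratory chain genes 49 and 1, and of 36 proteasome subunits 23 and 0. Their median log2 differences were -0.61, -0.51, -0.62 and -0.49, and their median exon lengths 1422, 1700.5, 1304.5 and 2136 bases. Against p0 replicate 1 the medians were -0.96, -0.75, -0.98 and -0.67, and against p0 replicate 2 they were -0.21, -0.27, -0.32 and -0.28. After the correction for length they were -0.23, -0.30, -0.30 and -0.26, with 27, 30, 38 and 16 members lower and 9, 1, 3 and 1 higher. With the replicate block in the 8 libraries without p20 Keniry2022, 3, 13, 6 and 8 were lower, beside 683 of 11676 features tested there. The 3 cytosolic ribosomal genes lay below that share.

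Rpl7 of the large ribosomal subunit was at 8.34 and 7.64 at p0 and at 7.23 and 7.06 at p10, a difference of -0.84. Mrpl11, of the mitochondrial ribosome, differed by -0.92 and by -0.82 after the correction. Ndufb4 and Ndufa5, subunits of respiratory complex I, differed by -1.35 and -1.06, or -0.94 and -0.62 after the correction, and Psma1, a subunit of the proteasome core, fell from 7.83 and 7.29 to 6.81 and 6.64. The respiratory gene that rose was the HIF-induced Ndufa4l2. Ribosomal protein genes have many processed pseudogenes, so their read counts are uncertain.

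**Figure D4:**
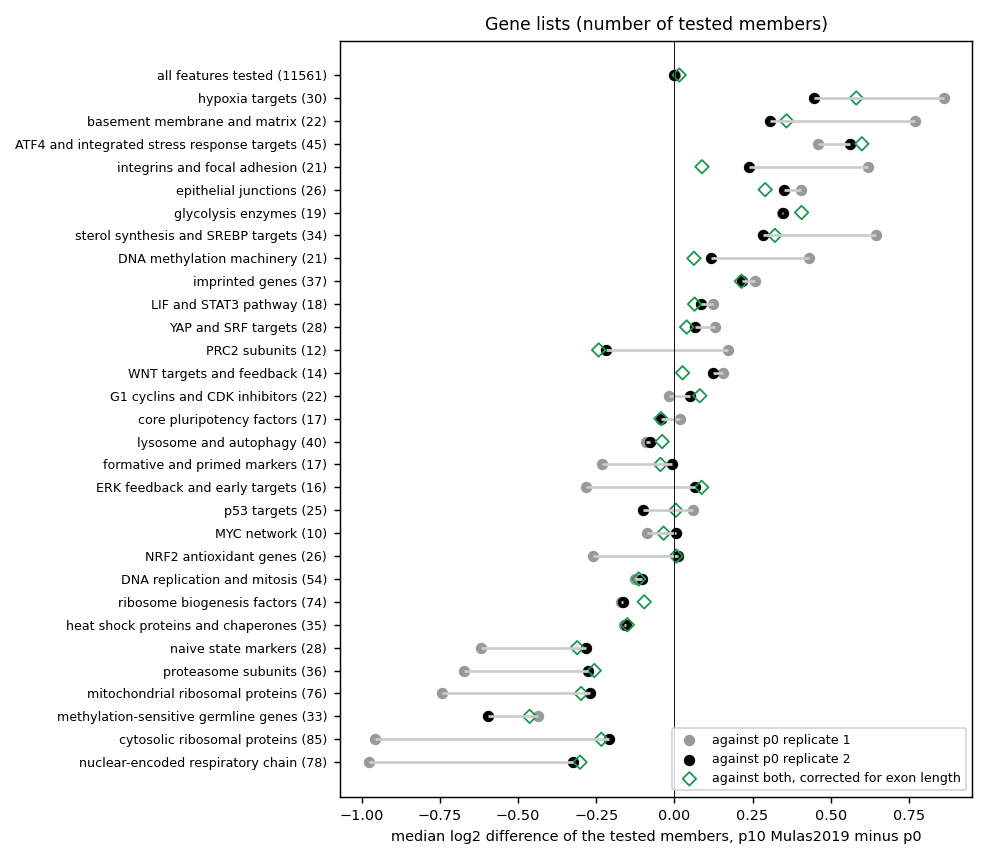
For each gene list with at least 10 tested members, the median log2 difference of p10 Mulas2019 from p0 replicate 1 (grey), from p0 replicate 2 (black) and from both after the correction for exon length (green diamonds), with the number of tested members in brackets. The ATF4 list sits at 0.46, 0.56 and 0.60 and the respiratory chain list at -0.98, -0.32 and -0.30, beside 0.00, -0.00 and 0.02 for all features.

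The next lists stand beside 17.3% lower and 15.7% higher over all tested features. Ribosome biogenesis factors, which build the ribosome in the nucleolus, were lower in 28 and higher in 7 of 74 members (median -0.17). After the correction for length 25 were lower and 4 higher. Nhp2 of the H/ACA ribonucleoproteins, whose exons overlap Rmnd5b, was at 8.61 and 7.92 and then at 7.21 and 7.25. Genes of DNA replication and mitosis were lower in 15 and higher in 3 of 54 (16 and 7 after the correction). Mad2l1, of the spindle checkpoint, went from 6.86 and 6.14 to 5.50 and 5.46. Pole, of the leading-strand polymerase and with exons that overlap Gm15792, went from 3.33 and 4.03 to 4.64 and 4.61. Heat shock proteins and chaperones were lower in 11 and higher in 3 of 35 (13 and 4 after the correction), and Hspa5 (BiP), the chaperone of the endoplasmic reticulum and a target of the unfolded protein response, was lower from 8.25 and 8.28 to 7.82 and 7.79 (difference -0.46 ± 0.07). The NRF2 antioxidant list stood near the shares over all features, 4 higher and 5 lower of 26 (5 and 4 after the correction), with Gsta3, a glutathione transferase, lower from 3.29 and 2.71 to 1.42 and 1.64 and Hmox1 higher by 0.48. The p53 list was split, 7 higher and 5 lower of 25 (7 and 3 after the correction), with Gdf15, a stress cytokine that is also an ATF4 target, from 2.20 and 1.63 to 2.88 and 3.04.

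The remaining lists are given by counts of higher and lower members, beside 15.7% and 17.3% over all tested features. Lysosome and autophagy genes numbered 3 and 11 of 40 (6 and 8 after the correction for length), LIF and STAT3 genes 2 and 4 of 18 (2 and 4) and ERK genes 3 and 2 of 16 (3 and 3). WNT genes numbered 3 and 1 of 14 (2 and 1), G1 cyclins and CDK inhibitors 5 and 1 of 22 (5 and 1), and the MYC network 2 and 1 of 10 (2 and 1). PRC2 subunits, which place the repressive H3K27 mark, were 1 and 4 of 12 and changed sign with the reference, at a median of 0.17 against p0 replicate 1 and -0.22 against p0 replicate 2. Their median exon length was 6818.5 bases, and after the correction 0 were higher and 6 lower, with the median turning from 0.06 to -0.24. Eed, the PRC2 core subunit that reads the mark, was lower against both, from 6.996 and 6.860 to 6.29 and 6.29.

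Genes whose p0 libraries stood furthest apart are given separately, because a mean of p0 describes neither library. Mdm4, a p53 inhibitor, was at 2.50 log2 RPKM in p0 replicate 1 and at 4.71 in p0 replicate 2, and at 5.43 and 5.37 at p10, so that p10 was 2.90 above the first and 0.69 above the second. Dst, a cytoskeletal linker with exons of 23369 bases, was at 2.21 and 3.77 and then at 4.36 and 4.32, and Rnf213, a large ubiquitin ligase, at 2.03 and 3.57 and then at 4.24 and 4.31. Gm14471, which overlaps Nup188, was alike. On the lower side were 4 short features. They were the pseudogene Gm4540, Usmg5 (which overlaps Taf5) and Ndufc2 of the respiratory chain, and Rps27l, a ribosomal protein paralogue that p53 induces. Rps27l was at 9.38 and 7.97 and then at 7.54 and 7.56, which is -1.83 from p0 replicate 1 and -0.42 from p0 replicate 2. In all 8, p0 replicate 2 lay between p0 replicate 1 and p10, the adjusted p lay between 0.0348 and 0.048, and 6 were still called after the correction for length (Dst and Rps27l were not).

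Markers of other cell types were mostly below the filter, with exceptions named here. The shares called over all tested features were 15.7% higher and 17.3% lower, and few members of each list were tested. Of 18 primitive endoderm markers 5 were tested, 2 called higher (Col4a1 and Col4a2, which overlap each other, the second not called with the replicate block in 10 libraries) and 1 lower (Sparc, a matrix glycoprotein at 6.88 and 6.67 log2 RPKM at p0 and 6.34 and 6.48 at p10), and the summed level of the list was 133 and 125 RPKM at p0 and 104 and 113 at p10. Gata6 and Sox17, which define that lineage, were at or under -1.04 log2 RPKM in all 4 libraries. Other factors of the lineage, also not tested, were higher at p10: Gata4 from -0.75 and -0.77 to 0.02 and -0.38, and Sox7 from -0.67 and -1.72 to -0.25 and -0.35. Sox17 was lower, from -1.29 and -1.13 to -2.17 and -1.58, and Gata6 overlapped. Of 16 trophoblast markers 6 were tested and 2 called higher, the imprinted Peg10 described above and Eomes (0.44), with a summed level of 15.2 and 23.2 RPKM at p0 and 21.4 and 24.7 at p10, and Cdx2 had 15 and 8 reads at p0 and 2 and 8 at p10. Mesendoderm (2 of 16 tested) and neuroectoderm markers (5 of 14) summed to 16.6 and 11.2, and to 105 and 87.1 RPKM at p0, against 6.81 and 8.36, and 73.3 and 77.1 at p10. Of the mesendoderm markers, Gsc was lower, from 3.68 and 2.88 to 1.71 and 2.06, and Eomes, which is on this list too, was higher, from 0.70 and 0.82 to 1.07 and 1.31 (adjusted p = 0.0431), though not with the replicate block in 10 libraries or after the correction for length. Of the neuroectoderm markers, 2 were higher and 2 lower. Tubb3, a neuronal tubulin whose exons overlap Gm20388, was at 6.43 and 6.11 and then at 5.78 and 5.87. Fibroblast feeder markers summed to 86.8 and 68.8 RPKM and then 57.7 and 74.2, with 0 of 2 tested members called by limma (1 higher and 1 lower against p0 replicate 1 alone), and Col1a1 had 22 to 49 reads in each of the 4 libraries.

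Transcripts of the 2-cell-like state, which a small share of mESCs enters at any time, were lower in both tested members of 24. The share called lower over all tested features was 17.3%. The summed level of the list was 196 and 177 RPKM at p0 and 124 and 114 at p10, of which Eif1a alone made up 183 and 168 and then 120 and 110, so the sum is mostly that gene. Eif1a, a translation initiation factor gene, went from 7.51 and 7.39 to 6.90 and 6.79, and Gm5662 from 0.98 and 1.05 to -0.90 and -1.49. Zscan4d, which defines the state and was below the filter, had 129 and 94 reads at p0 and 38 and 43 at p10.

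The p10 libraries of the Keniry2022 method share the same p0, so the values are set side by side and the difference was tested between the p10 groups. These groups match in passage but not in days, since per the study p10 Mulas2019 is matched in days of culture by p20 Keniry2022. Between the p10 groups 4.77% of features were higher and 3.76% lower under Mulas2019. Of the 24 named features 19 differed in the direction of their change from p0. They were chosen by the distance of p10 Mulas2019 from p0, so this count leans towards a difference. Stra8 was at 5.35 and 4.97 log2 RPKM in p10 Keniry2022 beside 7.18 and 6.76 in p10 Mulas2019, and Trh at 5.48 and 6.18 beside 2.63 and 3.52. The 5 that did not pass were Dmrt1, Zdbf2, S100a13, Pttg1 and S100a1. S100a1 was at 2.50 and 2.52 in p10 Keniry2022 and at 2.70 and 2.56 in p10 Mulas2019 (difference 0.12 ± 0.21, not called), and Zdbf2 at 3.27 and 3.30 beside 3.83 and 3.66. After the correction for length Dmrt1 (0.81, adjusted p = 0.0268) and Pttg1 (-0.62, adjusted p = 0.0201) passed as well.

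Between p10 and p20 under Mulas2019 limma called 0 features (0.00%), with 772 at an unadjusted p under 0.05, and voom called 1, with 790 at that level. Trh was at 4.16 and 4.43 at p20, between p10 and p0, a difference from p10 of 1.22 ± 0.31 that did not pass (adjusted p = 0.46). Stra8 stood at 6.94 and 6.55 at p20 and Nr0b1 at 5.85 and 5.95, both near their p10 levels.

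**Figure D5:**
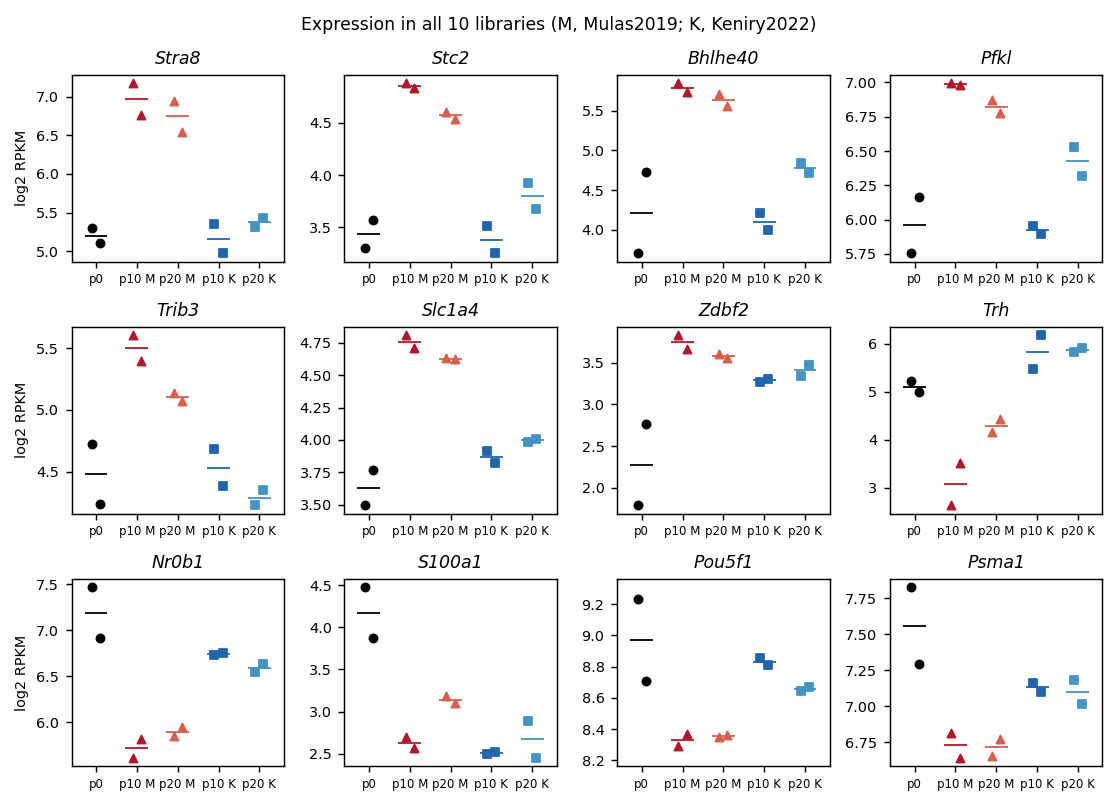
Expression (log2 RPKM) of 12 described genes in all 10 libraries, by group: p0, p10 and p20 Mulas2019 (M, triangles), p10 and p20 Keniry2022 (K, squares); points are libraries and bars the mean of 2. Stra8, Stc2, Bhlhe40 and Pfkl are higher in both Mulas2019 groups, while S100a1 stands at 2.50 to 2.70 at p10 under either method, below 3.87 and 4.47 at p0.

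By chromosome, the median log2 difference of p10 from p0, centred on the autosomes, lay below 0 in all 4 pairings of a p10 with a p0 library on chromosome 13 (-0.12 to -0.10, 437 features), chromosome 16 (-0.05 to -0.00, 361 features) and the X chromosome (-0.13 to -0.02, 386 features). It lay above 0 in all 4 on chromosomes 5, 9, 10 and 11, where the highest value was 0.05. With 2 libraries against 2, an exact permutation test cannot give a two-sided p below 0.333, and none was run. Zfp459, Glrx and Aoah of the features named above lie on chromosome 13, and Nr0b1 lies on the X chromosome.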

How the data were processed

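RNA was sequenced from 10 mESC libraries of 5 groups with 2 libraries each, grouped by their labels. The authors trimmed single-end reads, aligned them to the mouse genome (mm10; HISAT2 in the methods, TopHat2 2.0.12 in the submitters' notes) and quantified them in SeqMonk. The deposited table gives 25965 features as log2 values, named logCPM, but each value is scaled to exon length as well as to library size (log2 RPKM), with features without reads entered at 0.9 reads. Read counts and exon lengths were recovered from the value steps of the deposited log2 table, and 100.0% of values came out whole within 0.1 reads. No source used here gives the annotation release or the strandedness of counting, so overlapping genes may share reads.

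Features above a log2 value of 0 in at least 50% of libraries (11561) were fitted with limma 3.58.1 (R 4.3.3, empirical Bayes with intensity trend, all 10 libraries, two-sided, Benjamini-Hochberg, adjusted p under 0.05). Where nothing says that libraries came from separate cultures, p-values measure only the spread between these samples. The same replicate number marked the same line at p0 and p10, per the study, and deviations from group means correlated at 0.229 between p0 and p10 Mulas2019. Exon length was corrected per library by loess (span 0.3), an alternative added after the data were seen. The members, gene lists and tests were chosen with earlier results of these data known. Named features were called, at a mean log2 of at least 3 over the 4 libraries. They had no overlap of p10 with p0 and the largest difference from the nearer p0 library (12 a direction), or the widest p0 gap (4 a direction). Up to 4 called members a list were named by no overlap and the same distance, with further list members chosen after their values were seen. The script was tested on simulated data. Alternatives were other normalisations, filters and offsets, voom on the recovered reads, quality weights, replicate blocks, smaller sets of libraries and leaving out each library. Symbols were matched to GENCODE vM21 for 24849 features, and promoter sequences came from RefSeq (GRCm38.p6).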

Additional observations from a re-analysis of the deposited data

Results flagged for a closer look

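For 19 of the 24 features named by their distance from the nearer p0 library, the change from p0 to p10 differed between the culture methods by limma's test of the difference. As p0 is shared, that difference equals p10 Mulas2019 minus p10 Keniry2022, groups matched in passage but not in days of culture. On the log2 scale it was 1.81 for Stra8, 1.48 for Stc2, 1.13 for Gm20417, 1.49 for Gm514 and 1.69 for Bhlhe40. It was 0.77 for Aldh18a1, 0.89 for Slc1a4, 0.77 for Kdm6b, 1.35 for Alpk3 and 1.88 for Ndufa4l2. Among features that fell it was -1.503 for Ppp1r14d, -2.75 for Trh, -1.51 for Gm10664, -1.52 for Cbr3 and -1.47 for Zfp459. It was -1.02 for Nr0b1, -1.25 for Glrx, -1.20 for Aoah and -1.30 for Gm694. Between the p10 groups 4.77% of all tested features were higher and 3.76% lower under Mulas2019. The 24 were chosen by the distance of p10 Mulas2019 from p0, so the count of 19 leans towards a difference. Groups of 2 libraries were too small for a check of single outlying libraries.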

How the results depend on the processing

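The count of called features depended on which libraries set the spread. Against 3816 (1812 higher, 2004 lower), limma called 0 in the fit of the 4 libraries, 0 with library quality weights, 0 with the 6 libraries of p0 and p10 (4115 at an unadjusted p under 0.05) and 0 in the 4 libraries after the correction for exon length. Leaving out 1 library gave 11 to 8250 called features, with 2 to 4137 higher and 9 to 4113 lower, and after the correction for length 4045 without p0 replicate 1 and 7128 (3666 higher, 3462 lower) without p0 replicate 2. Voom on the recovered reads called 3887, quantile normalisation 3783, no filter 3441 and a log2 value above 2 as the filter 2976. The share of calls that were higher was 47.5%, but 42.9% with median centring and 41.7% with the stricter filter.

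With the replicate block the count was 3575 in 10 libraries, 1324 (641 higher, 683 lower) in the 8 libraries without p20 Keniry2022 and 1781 (930 higher, 851 lower) in the 4 libraries. Of 170 features followed, the block in 10 libraries lost the calls of Col4a2, Sparc, Dazl, Psmb10, Eomes and Nes, and gained none. A block by Y-linked reads, added after the data were seen, called 3447.

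Direction turned in 3 followed features. Nanog was at 0.10 under quantile normalisation, and after the correction for length without p0 replicate 2 Zfp42 was at 0.00704 and Npc1 at -0.0536. The cause was not tested. With 2 libraries a group, small differences could be missed, and in simulation 18 of 100 changes of 0.5 on the log2 scale were recovered. The simulation had few changed features and 1 spread for all libraries of a feature, so it sets no detection limit for these data. Smaller differences were also called here, such as -0.46 for Hspa5.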
